A study of Oryza sativa with 4 samples.

Results

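*CRSH2*, *MRL7* and *GYRB* are nuclear rice genes whose products act in, or are related to proteins that act in, the plastid. They were picked by the difference between *OsABA8ox3* RNAi and WT leaves at 0 h and at 2 h of PEG, as *CRSH2* had a higher and *MRL7* and *GYRB* a lower signal in the RNAi line at both times. The measured genotype differences are therefore a description of these genes and carry no test. No fold was fixed for this choice. By symbol or synonym, the 3 genes paired with 3 of the 57258 rice probe sets on the array, 1 for each gene, out of 17905 genes that paired with a probe set. Their gene identifiers are LOC4337890 (*CRSH2*), LOC4327529 (*MRL7*) and LOC4326261 (*GYRB*). None of the 3 probe sets was dim: on each of the 4 arrays they reached 6 or more in log2 signal, which 20916 probe sets in total did.

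To follow drought-responsive expression when ABA breakdown is reduced, the study hybridized leaf RNA of rice seedlings (*Oryza sativa*, cultivar ZH11) to Affymetrix Rice Genome Arrays. OsABA8ox3 is an ABA 8'-hydroxylase, an enzyme that starts the breakdown of the stress hormone abscisic acid (ABA). The RNAi line at 0 h, WT at 0 h, the RNAi line at 2 h of 20% PEG and WT at 2 h of 20% PEG were measured on 1 array each. PEG draws water from the roots and so imitates drought. The RNAi plants all belong to a single transgenic line. The methods describe the WT plants as ZH11 carrying the pYL vector, while the array labels say only wild type. There was no array at 2 h without PEG, so PEG and time cannot be told apart. With 1 array per condition, every difference given here compares single arrays, and neither a replicate error nor a test could be had. In leaf tissue, fewer cells of a type and less RNA per cell cannot be told apart.

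Plastids keep a bacterial kind of gene expression under the control of nuclear genes. RelA/SpoT homologues (RSH) make and hydrolyse the alarmone ppGpp, which in bacteria and in plastids slows transcription and translation, and the CRSH type carries calcium-binding EF hands. In Arabidopsis, MRL7 is a chloroplast nucleoid protein required for chloroplast development and for transcription by the plastid-encoded RNA polymerase. DNA gyrase is a type II topoisomerase of bacterial origin that adds negative supercoils to DNA, with GYRA as the subunit that cuts and rejoins the strands and GYRB as the subunit that binds ATP. In Arabidopsis its subunits are imported into chloroplasts and mitochondria. The arrays measure transcripts and give no localization, so the plastid role stands here as background only.

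The arrays were alike in range. Their median log2 signals were 5.44 and 5.45 in the RNAi line at 0 h and 2 h and 5.32 and 5.42 in WT, and 42.4% to 43.4% of the probe sets reached 6. Of the 12 probe sets of 5 leaf and photosynthesis genes, 10 lay between 12.27 and 15.69 on every array, among them all 4 of *RCA* (Rubisco activase). The other 2 were dim, the single probe set of *RBCS1* at 4.84 to 5.44 and 1 of the 4 of *RBCS* (Rubisco small subunit) at 3.27 to 6.46. By symbol or synonym, no probe set paired with *OsABA8ox3*. A name without a match would give the same result, so this does not show that the array lacks the gene. The labels were therefore not checked on the transcript that was silenced. The 9 bacterial and phage hybridization controls were higher in the RNAi line than in WT by a mean of 0.43 at 2 h (0.28 to 0.57) and by 0.05 at 0 h, in log2.

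*CRSH2* had the largest genotype difference of the 3 genes and was high on both RNAi arrays. Its log2 signal was 13.94 in the RNAi line and 11.28 in WT at 0 h, and 13.78 in the RNAi line and 11.62 in WT at 2 h of PEG. The 2 RNAi values lay within 0.17 of each other and the 2 WT values within 0.33. The RNAi line was thus higher by 2.66 (6.33-fold) at 0 h and by 2.16 (4.47-fold) at 2 h. At 2 h the difference was 1.74 when the arrays were scaled to the hybridization controls, and it stayed over 2-fold under each of the 6 alternatives tried. Among them, a floor of 6 in log2 signal could not change it, since its signals lay above 6 throughout.

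*MRL7* was low on both RNAi arrays and highest in WT before PEG. Its log2 signal was 7.15 in the RNAi line and 9.32 in WT at 0 h, and 7.19 in the RNAi line and 8.53 in WT at 2 h. The RNAi values differed by 0.04 between the times, whereas the WT values differed by 0.80, so that the gap between the genotypes was narrower after PEG. The RNAi line was lower by a log2 difference of −2.17 (4.51-fold) at 0 h and −1.33 (2.52-fold) at 2 h. The *MRL7* probe set carries the suffix of those whose probes can also match other transcripts. Another probe set with the same cluster number in its name is paired with the gene LOC4338592 and had 11.16 in the RNAi line and 11.05 in WT at 0 h, and 10.88 in the RNAi line and 10.82 in WT at 2 h. Its genotype differences were 0.11 and 0.07. A further probe set of that number, not paired with a gene, had 7.12 in the RNAi line and 6.66 in WT at 0 h, and had 5.98 in the RNAi line and 5.17 in WT at 2 h. As deposited, both were higher in the RNAi line, unlike *MRL7*. Scaling to the hybridization controls shifts all differences at 2 h by −0.43, more than the 0.07 of the LOC4338592 probe set. Scaling to the overall median shifts those at 0 h by −0.12, about the size of its 0.11. The sign for that probe set therefore depends on the scaling. The last probe set of that number was dim, with 4.71 in the RNAi line and 4.04 in WT at 0 h, and 1.83 in the RNAi line and 1.93 in WT at 2 h. The part of cross-hybridization in the *MRL7* signal was not tested.

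*GYRB* was lowest in the RNAi line at 0 h, and its 4 values spanned a range of about the same size as those of *MRL7*. Its log2 signal was 7.91 in the RNAi line and 9.99 in WT at 0 h, and 8.87 in the RNAi line and 9.66 in WT at 2 h. The RNAi array at 2 h lay between the RNAi array at 0 h and the WT arrays. The RNAi line was lower by a log2 difference of −2.09 (4.25-fold) at 0 h and −0.79 (1.73-fold) at 2 h. The difference at 2 h was therefore under 2-fold as deposited, and it became −1.22 with scaling to the hybridization controls.

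**Figure D1:**
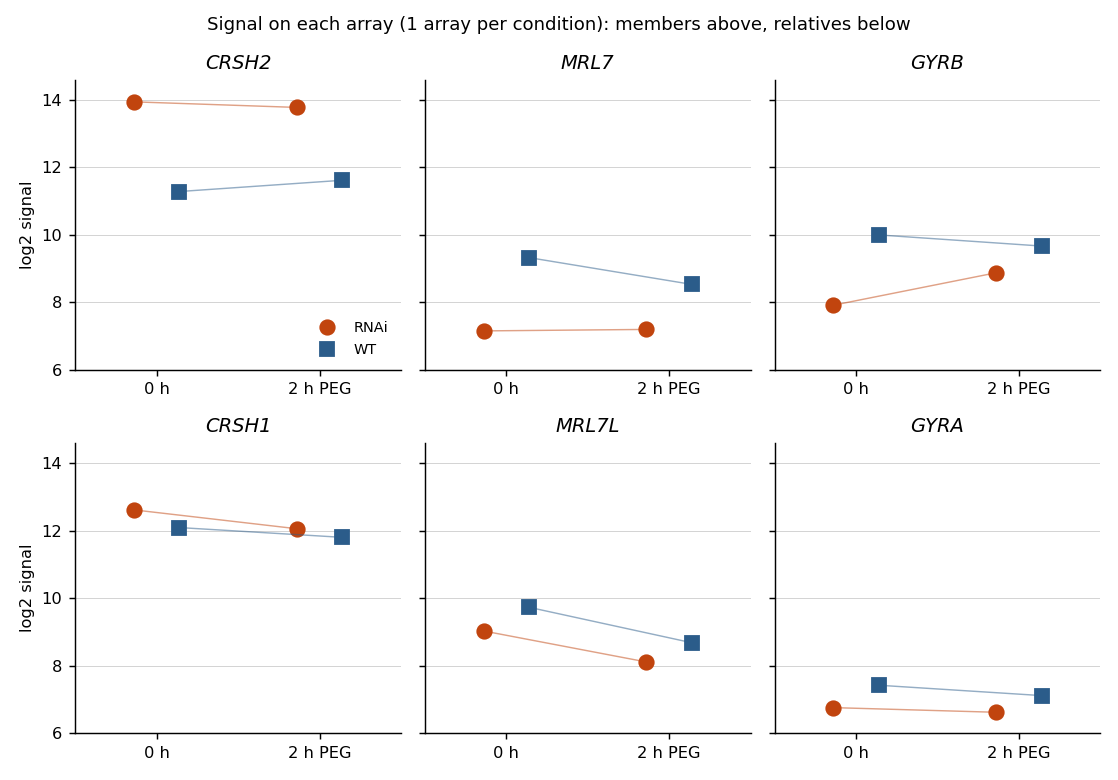
Log2 signal (vertical axis) of *CRSH2*, *MRL7* and *GYRB* (top) and of *CRSH1*, *MRL7L* (its brighter probe set) and *GYRA* (bottom) at 0 h and at 2 h of PEG (horizontal axis), with 1 array for each point, RNAi as circles and WT as squares, and thin lines joining the arrays of a genotype. *CRSH2* lay near 14 on both RNAi arrays and under 12 on both WT arrays, while *MRL7* and *GYRB* lay lower in RNAi at both times. Levels should not be compared between panels, since probe sets differ in brightness.

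Over 2-fold, all 3 genes differed at 0 h and 2 of them, *CRSH2* and *MRL7*, at 2 h. Of all rice probe sets at 0 h, 18.4% had a more than 2-fold higher signal in the RNAi line and 15.1% a more than 2-fold lower signal. At 2 h these shares were 17.0% and 15.1%. Among the 20916 probe sets that reached 6 on every array, they were 3.82% and 2.13% at 0 h and 3.30% and 1.71% at 2 h. At both times, 1.31% of these were over 2-fold higher, as *CRSH2* was, and 0.335% over 2-fold lower, as *MRL7* was. The genes were chosen on these very differences, so nothing further is read from the shares. By the smaller of its differences at the 2 times, *CRSH2* was the 18th highest of the 20916, *MRL7* the 24th lowest and *GYRB* the 183rd lowest. *GYRB* ranked 15th lowest at 0 h but 848th lowest at 2 h.

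**Figure D2:**
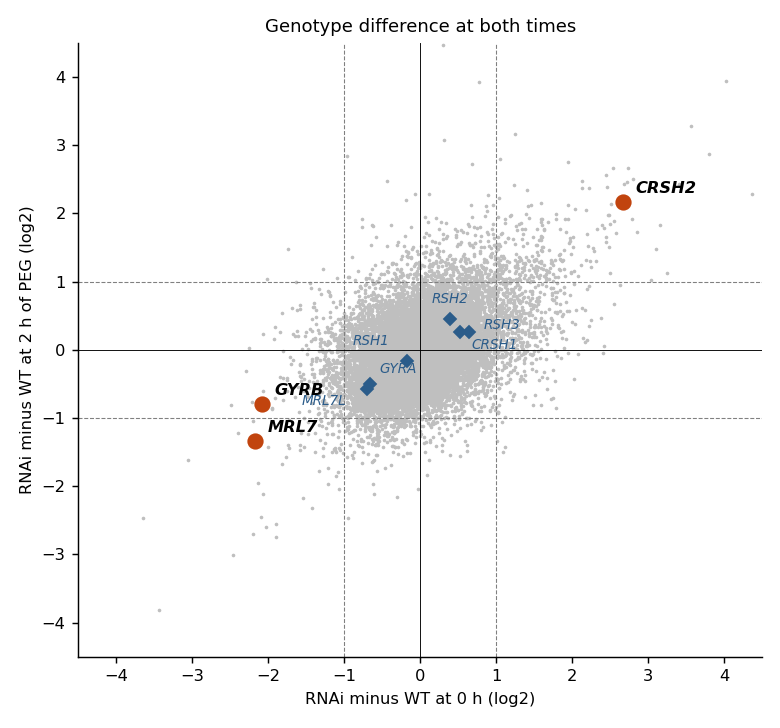
RNAi minus WT in log2 signal at 0 h (horizontal axis) and at 2 h of PEG (vertical axis) for probe sets that reached a log2 signal of 6 on every array (grey, 20911 shown and 5 outside the axes), with *CRSH2*, *MRL7* and *GYRB* as large circles, related genes as diamonds (*MRL7L* by its brighter probe set), and dashed lines at 2-fold. *CRSH2* lies at 2.66 and 2.16, *MRL7* at −2.17 and −1.33 and *GYRB* at −2.09 and −0.79, outside the bulk of the probe sets, and the related genes lie within 2-fold at both times.

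After PEG, none of the 3 genes changed over 2-fold in either genotype, and the changes of each had opposite signs in the RNAi line and WT. The change in *CRSH2* was −0.17 in the RNAi line and 0.33 in WT. *MRL7* changed by 0.04 in the RNAi line and by −0.80 in WT, and the sign in the RNAi line turned to −0.23 with scaling to the hybridization controls. *GYRB* changed by 0.96 in the RNAi line, just under 2-fold, and by −0.33 in WT. For all 3 the gap between the genotypes was smaller at 2 h than at 0 h. The change in the RNAi line minus that in WT was −0.50 for *CRSH2*, 0.84 for *MRL7* and 1.29 for *GYRB*, so only that of *GYRB* was over 2-fold. With the hybridization controls that of *GYRB* was 0.92, and so under 2-fold. Since it equals the genotype difference at 2 h minus that at 0 h, and the genes were chosen on both, it is a description too. Of all rice probe sets, 41.8% changed over 2-fold after PEG in the RNAi line, 42.9% in WT, 42.2% had changes that differed over 2-fold between them, and 33.8% had changes of opposite sign. Among the probe sets that reached 6 on every array, as the 3 genes did, 23.2% changed over 2-fold in the RNAi line and 25.8% in WT. The changes differed over 2-fold between the genotypes for 6.74% of these.

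The other genes of the ppGpp group lay within 2-fold between the genotypes. *CRSH1*, which encodes the related calcium-activated ppGpp synthase, had 12.62 in the RNAi line and 12.09 in WT at 0 h, and 12.06 in the RNAi line and 11.80 in WT at 2 h. Its genotype difference was thus 0.53 at 0 h and 0.26 at 2 h, and the value at 2 h became −0.17 with the hybridization controls. The probe set of *CRSH3* was dim, between 1.79 and 2.61 on all 4 arrays. The RSH proteins lack the EF hands of the CRSH type. *RSH1* was at −0.18 and −0.16 for RNAi minus WT, and *RSH2* at 0.38 and 0.44. With the hybridization controls the value at 2 h became −0.59 for *RSH1* and 0.02 for *RSH2*. *RSH3* was at 0.64 and 0.25, and the value at 2 h became −0.17 with the hybridization controls. *RSH3* was the gene of this group that moved most after PEG. Its log2 signal was 13.78 in the RNAi line and 13.53 in WT at 2 h, against 12.02 in the RNAi line and 11.38 in WT at 0 h, a rise of 1.76 in the RNAi line and 2.15 in WT. *CRSH2* itself, by contrast, stayed within 0.33 of its 0 h signal in both genotypes.

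The partner subunit of gyrase and, on its brighter probe set, the paralogue of MRL7 had smaller differences in the same direction as the genes chosen. *GYRA* had 6.75 in the RNAi line and 7.41 in WT at 0 h, and 6.61 in the RNAi line and 7.11 in WT at 2 h. Its genotype differences were −0.66 and −0.49. The brighter of the 2 probe sets of *MRL7L*, the gene named after its likeness to *MRL7*, had 9.03 in the RNAi line and 9.73 in WT at 0 h, and 8.10 in the RNAi line and 8.67 in WT at 2 h. It was lower in the RNAi line by a log2 difference of −0.70 and −0.57, and it was also lower after PEG, by a change of −0.92 in the RNAi line and −1.05 in WT. The differences between genotypes for *GYRA* and this probe set of *MRL7L* were under 2-fold and kept their sign under each of the 6 alternatives. They were −0.92 and −0.996 at 2 h with the hybridization controls. A floor of 6 could change neither, since both probe sets lay above 6 on every array. The other probe set of *MRL7L* was dim, with 3.97 in the RNAi line and 5.13 in WT at 0 h, and 1.75 in the RNAi line and 5.42 in WT at 2 h. Its differences, from these low signals, were over 2-fold, at −1.16 and −3.67. Neither gene was used to choose the 3, but both were listed with earlier results of these data known. Over all genes, 30.7% were lower in the RNAi line at both times. With 1 array per condition there is no measure of how far such differences vary between plants.

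Wider gene lists were counted against all 17905 genes, of which 10.6% had a more than 2-fold higher and 6.92% a more than 2-fold lower signal in the RNAi line at 0 h, with shares of 9.29% and 6.84% at 2 h. These lists were set by symbol, and only the genes that could be paired with a probe set by name were counted, without *CRSH2*, *MRL7* and *GYRB* themselves. Of the 5 other genes for ppGpp enzymes, 0 were over 2-fold higher or lower in the RNAi line at either time. Their median differences were 0.38 at 0 h and 0.26 at 2 h, where it was −0.17 with the hybridization controls. The 5 other topoisomerase genes had medians of −0.41 and −0.18, and 3 of them were lower in the RNAi line at both times. With a floor of 6 the median at 2 h was 0.00, and 2 were lower at both times. With the hybridization controls the median at 2 h was −0.61. Apart from *GYRA*, the 5 genes encode topoisomerase VI subunits and SPO11 proteins, which act in the nucleus. *TOP6B*, a subunit of topoisomerase VI, was among these, at −0.42 and −0.71. *TOP6A2* was over 2-fold higher in the RNAi line at 2 h as the mean of 3 probe sets that reached as low as 0, and not so with a floor of 6 (0.00), an offset of 32 (0.45) or the hybridization controls (0.79). Plastid transcription was represented by 3 other genes, of which *MRL7L* and the sigma factor gene *SIG2B* were lower at both times, *MRL7L* over 2-fold at 2 h as the mean with its dim probe set. With a floor of 6 that mean was −0.28, and with an offset of 32 it was −0.80. Sigma factors guide the plastid-encoded RNA polymerase to its promoters, and *SIG2B* was at −0.56 and −0.28. The other, listed as *PAP2*, was at 0.22 and 0.09, and its name alone does not settle that it is a polymerase-associated protein. The only gene of plastid nucleotide supply and DNA replication with a probe set, *V2*, a guanylate kinase gene, was at −0.68 and −0.36. Over all 17905 genes the median difference was 0.03 at 0 h and −0.02 at 2 h, and 30.7% of the genes were lower in the RNAi line at both times, 47.7% at 0 h and 51.6% at 2 h.

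Genes of chlorophyll synthesis and chloroplast development (14) had a median difference of −0.15 at 0 h and 0.15 at 2 h, where it was −0.28 with the hybridization controls. At 0 h, 9 of the 14 were lower in the RNAi line, 4 at 2 h and 3 at both times, or 8 at both times with those controls, beside the shares over all genes of 47.7%, 51.6% and 30.7%. Over 2-fold, 1 of the 14 was lower at 0 h and 1 was higher at 2 h, beside 6.92% and 9.29% of all genes. *CHLI* and *CHLD*, which encode subunits of the magnesium chelatase of chlorophyll synthesis, were at −0.90 and −0.78 at 0 h. At 2 h *CHLI* was over 2-fold higher in the RNAi line, with 7.66 in the RNAi line and 6.30 in WT, a difference of 1.36 that became 0.93 with the hybridization controls. *CHLD* was then at −0.18. *PORA*, a protochlorophyllide reductase gene, was higher in the RNAi line at both times, by 0.93 and 0.996. The gene over 2-fold lower at 0 h was *AL1*, as the mean of 3 probe sets, and its name alone does not settle its role. The 2 brighter of these were at −1.32 and −1.62 at 0 h and at 0.16 and 0.28 at 2 h. The 5 leaf and photosynthesis genes had medians of 0.12 at 0 h and 0.14 at 2 h (−0.29 with the hybridization controls), and 0 of them were over 2-fold different between the genotypes.

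**Figure D3:**
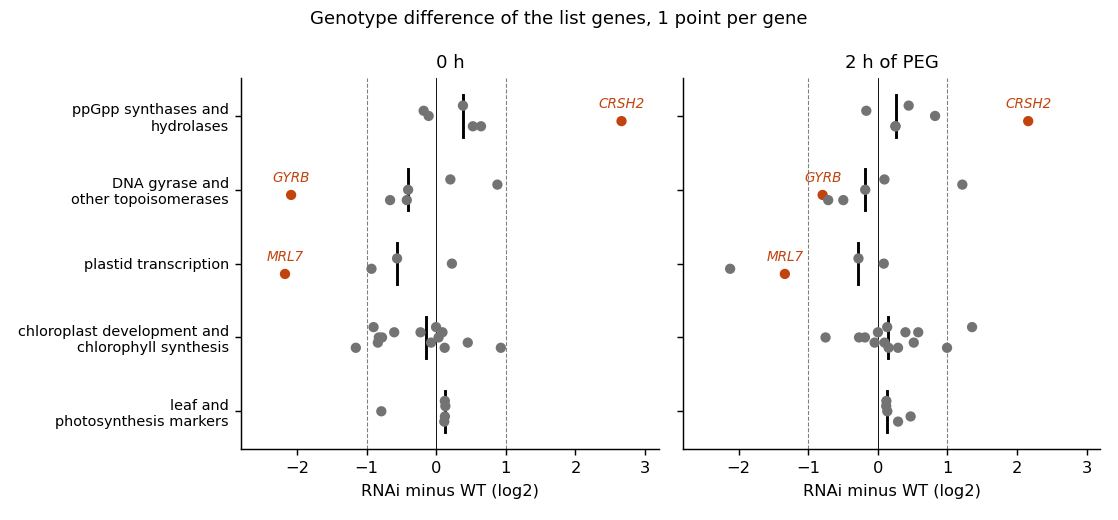
RNAi minus WT in log2 signal (horizontal axis) at 0 h (left) and at 2 h of PEG (right), with 1 point per gene as the mean of its probe sets, for the gene lists shown (rows), black bars at the median of the list without *CRSH2*, *MRL7* and *GYRB*, and dashed lines at 2-fold. The plastid DNA list, with *V2* as its only gene, is not shown. *CRSH2* stands to the right of the other ppGpp genes at both times, and *MRL7* and *GYRB* stand to the left at 0 h.

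The genes next to each of the 3 on the chromosome were examined by their order in the rice gene table. *CRSH1* and *CRSH3* lie close to *CRSH2*, with 1 gene between *CRSH1* and *CRSH2* and with *CRSH3* as the next gene on the other side. Among the 10 flanking genes of *CRSH2*, 5 on each side, 9 had a probe set and 7 reached a signal of 6 on every array. Of these 7, LOC4337884, the fifth gene on the side of *CRSH1*, was over 2-fold different between the genotypes. Its log2 signal was 10.08 in the RNAi line and 7.59 in WT at 0 h, and 10.95 in the RNAi line and 8.98 in WT at 2 h. It was thus 2.49 and 1.97 higher in the RNAi line, close in size to *CRSH2*, and its PEG change was 0.87 in the RNAi line and 1.38 in WT. The other 6 lay between −0.50 and 0.89 at 0 h. Of the 4 genes with a probe set between LOC4337884 and *CRSH2*, the 3 that reached 6 were at −0.50, 0.53 (*CRSH1*) and −0.03 at 0 h. The fourth, LOC4337886, was at 0.74 at 0 h and 4.16 at 2 h from signals between 0.37 and 4.52. Around *MRL7*, 4 of 10 flanking genes had a probe set, and the 2 probe sets with a signal of at least 6 were at 0.00 and 0.23 at 0 h. Around *GYRB*, 6 of 10 had a probe set, and the 8 probe sets concerned lay between −0.41 and 0.05 at 0 h and between −0.57 and 0.38 at 2 h. None of these probe sets that reached 6 was over 2-fold different between the genotypes. Among all probe sets that reached 6 on every array, 5.96% were over 2-fold different at 0 h and 5.01% at 2 h. With so few flanking probe sets, these counts are not read as a result about the loci. Around *MRL7*, 3 further probe sets did not reach 6 on every array. Of these, 1 of the 2 of LOC4327421 had 6.41 in the RNAi line and 2.53 in WT at 0 h, and 2.18 in the RNAi line and 5.46 in WT at 2 h, so that the sign of its difference changed.

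**Figure D4:**
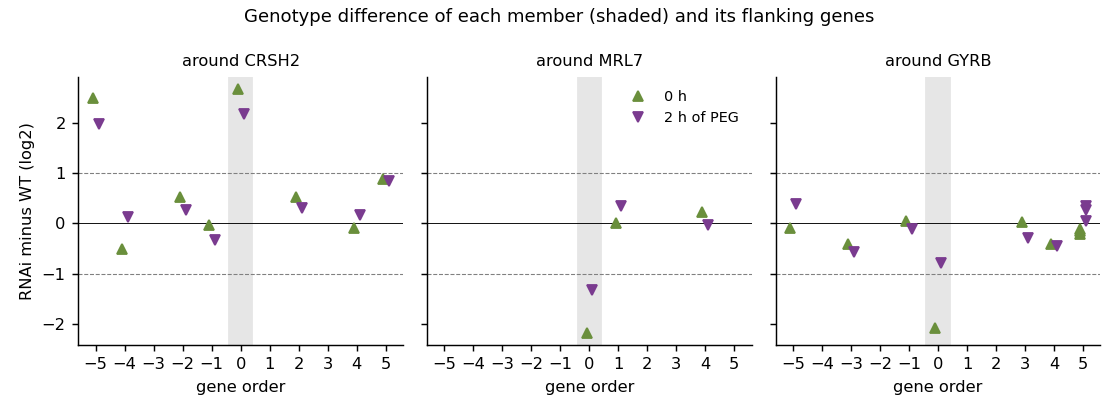
RNAi minus WT in log2 signal (vertical axis) at 0 h and at 2 h of PEG for *CRSH2*, *MRL7* and *GYRB* (shaded, gene order 0) and for probe sets of the 5 genes on each side that reached 6 on every array, by gene order (horizontal axis), with dashed lines at 2-fold. Apart from the gene at position −5 beside *CRSH2*, at 2.49 and 1.97, the flanking genes shown lie within 2-fold.

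The named genes most like each of the 3 in pattern were found by the distance between the 4 log2 signals after each probe set's own mean was subtracted, among 2283 probe sets of 1886 genes. Each of these reached 6 on every array and was paired with 1 gene whose name is not a locus or clone number. The other probe sets of the 20916 that reached 6 were not compared, and some may lie nearer. Nearest to *CRSH2* were *CYP701A8* at 0.80, *CPS2* at 0.85 and *OsSUS5* at 0.85. *CPS2*, which encodes a copalyl diphosphate synthase of diterpenoid synthesis, had 9.35 in the RNAi line and 6.88 in WT at 0 h, and 8.36 in the RNAi line and 6.38 in WT at 2 h. *CYP701A8*, a cytochrome P450 gene of diterpenoid metabolism, was 1.59 and 1.82 higher in the RNAi line, and the sucrose synthase gene *OsSUS5* was 1.59 and 1.63 higher. Nearest to *MRL7* were *OST1A* at 0.65, the beta-glucosidase gene *BGLU3* at 0.71 and the potassium transporter gene *HAK1* at 0.74. Nearest to *GYRB* were *OST1A* again at 0.65, the chlorophyll synthase gene *CHLG* at 0.69 and *CYC07*, also listed as RPS3A, at 0.75. *OST1A* had 6.37 in the RNAi line and 7.78 in WT at 0 h, and 6.48 in the RNAi line and 7.54 in WT at 2 h. *CHLG* had 9.66 in the RNAi line and 10.95 in WT at 0 h, and 10.33 in the RNAi line and 10.61 in WT at 2 h. *MRL7* and *GYRB* lay 0.79 apart, and 4.24 and 3.96 from *CRSH2*. A distance over 4 arrays is a description, and genes with a like pattern share the same arrays.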

How the data were processed

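Leaf RNA from the RNAi line and WT at 0 h and at 2 h of 20% PEG was measured on 1 Affymetrix Rice Genome Array per condition. The authors used the GCOS software for collection and normalization, and they deposited log2 signals. MAS5 is named in the submitters' processing notes, without a version, and the scaling target is not given in the sources used here. Of the probe sets, 57258 were of rice, and the 123 controls entered no comparison.

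Each difference is that of 2 deposited log2 values, without a filter or floor, and over 2-fold (1 in log2) was the threshold for calls. No test was possible with single arrays, whose number limits the precision. Probe sets were named through GEO's platform annotation, which paired 22436 with 1 gene and 95 with several, and a rice gene table (assembly ASM3414082v1) that held all 17905 gene IDs and was used for names and gene order only. Lists were set by symbol or synonym, and names with no match were not counted: 6 of 8 names for ppGpp enzymes, 7 of 10 for topoisomerases, 1 of 20 for plastid DNA, 5 of 29 for plastid transcription, 16 of 51 for chloroplast development and 6 of 22 for leaf markers were found. The genes and lists were chosen with earlier results of these data known. Named by rule were the 3 genes, their relatives, list genes over 2-fold between genotypes, and for each of the 3 the 3 nearest patterns by Euclidean distance. Other list genes and the flanking gene LOC4337884 were named after their values were seen.

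The alternatives were a floor of 6, an offset of 32 on the linear signal, scaling to the overall median, to the median of probe sets of at least 8 or to the 9 hybridization controls, quantile normalization, and fold thresholds of 1.5 and 3. Scripts ran in Python 3.11.15 with pandas 2.3.3 and were tested on simulated data.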

Additional observations from a re-analysis of the deposited data

Results flagged for a closer look

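For 14 of the 26 probe sets named by rule, the PEG change had opposite signs in the RNAi line and WT. The 26 were those of the 3 genes, their relatives, list probe sets over 2-fold between genotypes, and the nearest patterns. Probe sets named after their values were seen were not counted, though some had opposite signs, such as *CHLD* (0.03 in the RNAi line, −0.57 in WT). Over all rice probe sets, dim ones included, the signs were opposite for 33.8%. The differences (RNAi minus WT) were not tested, with 1 array per condition. The nearest patterns were picked for their likeness to the 3 genes, so their flags are no independent observation.

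For *CRSH2* the difference was −0.50, for *MRL7* 0.84 and for *GYRB* 1.29. The sign of *MRL7* in the RNAi line rests on a change of 0.04. Among the nearest patterns it was 0.23 for *CYP701A8*, 0.35 for *OST1A*, 1.33 for *BGLU3*, 0.96 for *HAK1*, 1.01 for *CHLG* and 0.32 for *CYC07*. *BGLU3* changed by 0.32 in the RNAi line and by −1.01 in WT, and *CHLG* by 0.67 in the RNAi line and −0.33 in WT.

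Among the list genes, the difference was 2.26 for *CHLI*, which changed by 0.47 in the RNAi line and −1.79 in WT, and 1.48 and 1.90 for 2 probe sets of *AL1*. It was 0.93 for *CRSH3* and −2.51 for the dimmer probe set of *MRL7L*, both from signals under 6. With scaling to the hybridization controls, 9 of the 14 still had opposite signs and 5 did not, namely *MRL7*, *CYP701A8*, *OST1A*, *HAK1* and *CYC07*. The PEG changes of *MRL7* were then −0.23 in the RNAi line and −0.69 in WT.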

How the results depend on the processing

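Of 90 values of the 3 genes under the 6 alternatives, 85 kept their direction and their side of 2-fold, and all genotype differences kept their direction. The values with a floor of 6 could not differ from those deposited, since the 3 probe sets reached 6 on every array. Scaling to the hybridization controls shifted all RNAi minus WT differences at 2 h by −0.43, PEG changes in the RNAi line by −0.27 and the difference of changes by −0.37. It gave *GYRB* −1.22 at 2 h, over 2-fold, and 0.92 for its difference of changes, no longer over 2-fold, and turned the PEG change of *MRL7* in the RNAi line to −0.23. The PEG change of *GYRB* in the RNAi line was over 2-fold at 1.10 with the median of probe sets of at least 8 and at 1.12 with quantile normalization. These shifts follow from the scaling itself, and which scaling is nearest to the true amounts was not tested. At 2 h, 2 genes differed over 2-fold between genotypes, 1 over 3-fold, and 1 without the probe set that can match several transcripts. After PEG, 0 genes changed over 2-fold, and over 1.5-fold 1 in the RNAi line and 1 in WT. Changes differed over 2-fold for 1 gene, over 1.5-fold for 2 and over 3-fold for 0. Array-wide shares were taken at the 2-fold threshold alone. It was passed by 32.1% of rice probe sets between genotypes at 2 h. For PEG changes the share was 41.8% in the RNAi line and 42.9% in WT, and for their difference 42.2%. Among probe sets that reached 6 on every array, the share between genotypes at 2 h was 5.01%. For PEG changes it was then 23.2% in the RNAi line and 25.8% in WT, and for their difference 6.74%. The counts at 1.5-fold and 3-fold have no such share beside them, so nothing is read from them. Each of the 3 genes has 1 probe set, so the mean or the brightest probe set gives the same value. No paired analysis was possible because each condition has 1 array. For the same reason no array could be left out. *CRSH3* and the dimmer probe set of *MRL7L* lay under 6, so their differences are of low signals.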

Other observations

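Of the 14 genes of chlorophyll synthesis and chloroplast development, 2 rose over 2-fold after PEG in the RNAi line and 2 in WT, and 3 fell over 2-fold in the RNAi line and 4 in WT. Over all 17905 genes, 2860 rose and 2818 fell over 2-fold in the RNAi line, and 3130 rose and 2802 fell in WT. The 2 that rose were *SGR* and *NYC1*. *SGR*, the stay-green gene, which encodes the factor that removes magnesium from chlorophyll, had 12.82 in the RNAi line and 13.38 in WT at 2 h, against 9.88 in the RNAi line and 9.57 in WT at 0 h, on its brighter probe set. The rise was 2.95 in the RNAi line and 3.81 in WT, and on the other probe set 3.45 in the RNAi line and 4.15 in WT. *NYC1*, a chlorophyll b reductase gene, rose by 1.72 in the RNAi line and 1.58 in WT. *NOL*, also a chlorophyll b reductase gene, was within 2-fold, at 0.38 in the RNAi line and −0.38 in WT on its brighter probe set and at 0.74 in the RNAi line and 0.25 in WT on the other. The transcription factor gene *GLK1*, which promotes chloroplast development, fell by 1.30 in the RNAi line and fell by 1.47 in WT. *PORB* fell by 1.31 in the RNAi line and fell by 1.90 in WT, while *PORA* changed by 0.68 in the RNAi line and 0.62 in WT. The falls over 2-fold also included *GLK2* in the RNAi line, with probe sets from −0.85 to −1.83. In WT they included *CHLI* at −1.79, and *CHLH* at −1.11 on its brighter probe set and −1.40 on a dim one. *SIG2B*, which is not among the 14, fell by 1.36 in the RNAi line and fell by 1.65 in WT. These values come from single arrays, with 2 h of PEG and 2 h of time not separated, and the genes were named after their values were seen.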
